A study of Mus with 8 samples.

Results

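The transcripts of 10 integrin subunits were followed in mouse bone-marrow monocytes cultured in stiff hydrogels. They were chosen by Ensembl gene ID and comprise the beta subunits Itgb1, Itgb2, Itgb3, Itgb5 and Itgb7 and the alpha subunits Itgav, Itga4, Itga5, Itga6 and Itgal. All 10 were found among the 17640 IDs of the count table, and all 10 were kept among the 14785 IDs tested. The study compared Jak2 V617F Vav-iCre monocytes in elastic gels and in viscous gels with Vav-iCre control monocytes in elastic gels and in viscous gels, with 2 libraries in each of the 4 groups. Every group is of the C57BL/6 strain and carries Vav-iCre, a Cre recombinase driven in blood-forming cells, so the controls share it. The Jak2 V617F allele, a kinase mutation that drives myeloproliferative neoplasm, is a knock-in at the endogenous gene. All cells were isolated by negative selection and grown to day 3 with GM-CSF at 100 ng/mL, IL4 at 200 ng/mL and PGE2 at 100 ng/mL. All gels were dissolved with collagenase and alginate lyase before lysis. Neither the age of the mice nor any pooling of animals is stated in the labels. The gels are called elastic or viscous as labelled, and elasticity cannot be told apart from other differences between them.

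Integrins are transmembrane receptors made of 1 alpha and 1 beta subunit, and the pairing sets which matrix protein or cell-surface ligand is bound. Outside the cell they hold matrix proteins or adhesion molecules of other cells, and inside it their beta tails bind talin and kindlin, which link them to actin. In monocytes they carry arrest on the vessel wall, migration into tissue and attachment to matrix.

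Totals ranged from 30632355 to 38408851 counts per library, and integrin counts ran from 166 for Itga6 to 45445 for Itgb2. Each library title closes with a number shared by an elastic and a viscous library of the same genotype. Titles ending in _6061 and _6065 are called J1 and J2 (Jak2 V617F), and those ending in _6060 and _6064 are called W1 and W2 (control), and values of 2 libraries are listed in that order unless named. What the number marks is not stated, so p-values cover only the spread among these libraries, part of which may be technical. Over all IDs tested, the first principal component (41.5% of the variance) scored both W1 libraries at 69.4 and 78.2 and the other 6 libraries between −37.1 and −10.9. The genotype comparisons, and some matrix effects over both genotypes, are therefore also given without W1 or without W2. The matrix effect in control cells and the difference of the matrix effects are described on all libraries only. The labelled cell type was not checked against marker genes, because the IDs outside the integrin set carry no names in the files used here. For the same reason the level of Jak2 itself was not analysed here, and a point mutation need not change it.

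The 10 genes were located by symbol in the RefSeq annotation of GRCm38.p6, and all 10 are protein-coding. Itga6 (ENSMUSG00000027111) lies at chr2:71786886-71858427, Itga4 (ENSMUSG00000027009) at chr2:79255426-79333114 and Itgav (ENSMUSG00000027087) at chr2:83722303-83806917. Itgb7 (ENSMUSG00000001281) at chr15:102215994-102233405 and Itga5 (ENSMUSG00000000555) at chr15:103344286-103366791 share a chromosome. Itgal (ENSMUSG00000030830) lies at chr7:127296139-127335137, Itgb1 (ENSMUSG00000025809) at chr8:128685654-128733579 and Itgb2 (ENSMUSG00000000290) at chr10:77530329-77565708. Itgb3 (ENSMUSG00000020689) lies at chr11:104608000-104670476 and Itgb5 (ENSMUSG00000022817) at chr16:33829665-33949338. The span of Itga4 overlaps the gene Cerkl, that of Itgav the pseudogene Dnmt3l-ps1 and that of Itga5 the microRNA gene Mir6963, so counts of these 3 could include reads of the overlapping gene.

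Levels are given first, as counts per 1000000 (CPM) scaled by the TMM method. No transcript lengths were used, so levels are compared between libraries and not between genes. In bulk RNA, fewer cells of a type and less RNA per cell cannot be told apart.

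**Figure D1:**
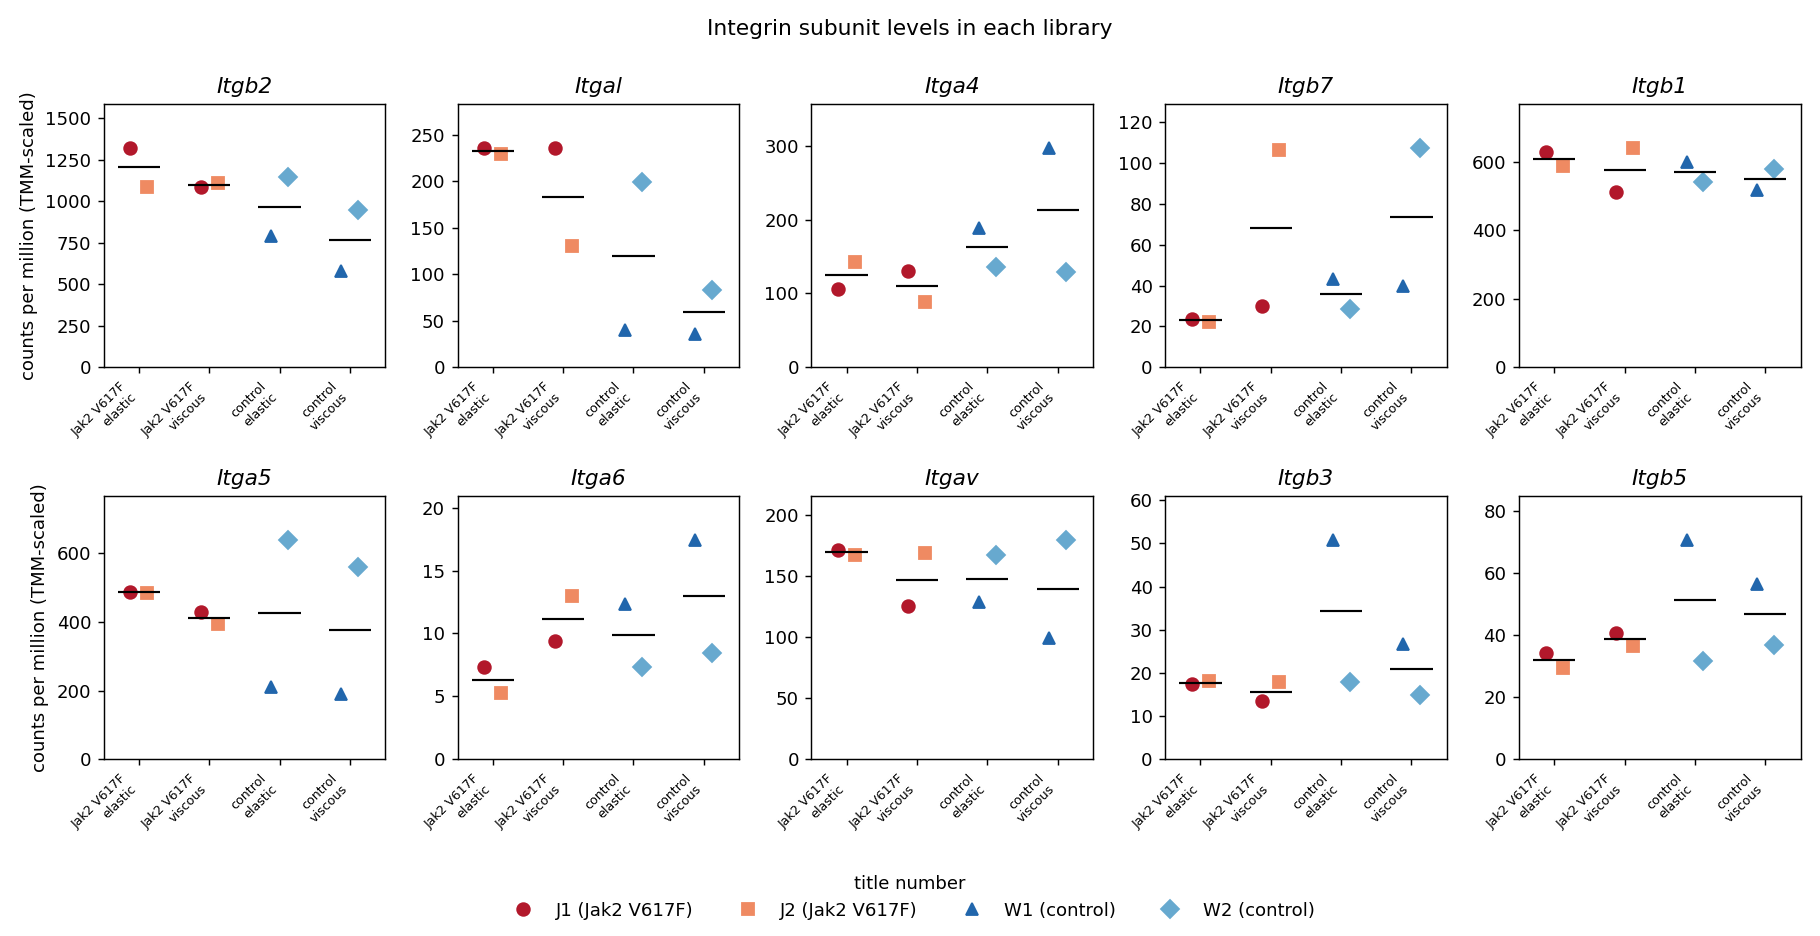
TMM-scaled CPM (y axis, from 0) of each integrin subunit in the 8 libraries, by genotype and gel on the x axis. Symbols mark the title number and bars the mean of the 2 libraries; both W1 libraries (triangles) lie above or below the other 6 for Itgb2, Itgal, Itga4, Itga5, Itgb3 and Itgb5.

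The leukocyte-specific receptor LFA-1 is made of Itgal, its alpha chain, and Itgb2, the beta chain shared with other leukocyte integrins, and it binds intercellular adhesion molecules on other cells. Itgb2 stood at 1323 and 1084 CPM in Jak2 V617F cells in elastic gel (J1 and J2) and at 1085 and 1109.9 CPM in viscous gel of the same genotype. In control cells it stood at 789 and 1147 CPM in elastic gel (W1 and W2) and at 578 and 948 CPM in viscous gel. The 4 Jak2 V617F libraries thus lay within or above the range of control W2, while both W1 libraries were the lowest of the 8. Itgal stood at 236 and 229 CPM in Jak2 V617F cells in elastic gel and at 236 and 130.2 CPM in viscous gel (J1 and J2). In control cells it stood at 40.4 and 199 CPM in elastic gel and at 36.2 and 83.1 CPM in viscous gel (W1 and W2). Both Jak2 V617F libraries were above both control libraries within each gel, but the 4 Jak2 V617F libraries overlapped the 4 control libraries when gels were pooled. Itgal had the widest range of the 10, with the highest library 6.52-fold above the lowest.

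Itga4 pairs with Itgb1 to bind the endothelial adhesion molecule VCAM1 and fibronectin, and with Itgb7 to bind the gut addressin MAdCAM1. Itga4 stood at 106 and 143 CPM in elastic gel and at 131 and 88.9 CPM in viscous gel in Jak2 V617F cells (J1 and J2). In control cells it stood at 189 and 136 CPM in elastic gel and at 298 and 129 CPM in viscous gel (W1 and W2). Both W1 libraries were the highest of the 8, and W2 lay within the Jak2 V617F range. Itgb7 stood at 23.8 and 22.1 CPM in elastic gel and at 30.1 and 106 CPM in viscous gel in Jak2 V617F cells (J1 and J2). In control cells it stood at 43.1 and 28.5 CPM in elastic gel and at 39.8 and 108 CPM in viscous gel (W1 and W2). Only 2 libraries, both viscous and 1 of each genotype, were above 100 CPM, and the other 6 were between 22.1 and 43.1 CPM.

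Itgb1 is the most widely shared beta subunit and the partner of Itga5 in the classical fibronectin receptor and of Itga6 in a laminin receptor. Itgb1 stood at 630.1 and 588 CPM in elastic and 512 and 642 CPM in viscous gel in Jak2 V617F cells, and at 598 and 541 CPM in elastic and 519 and 579 CPM in viscous gel in control cells. It varied least of the 10, with the highest library 1.25-fold above the lowest, and the groups overlapped. Itga5 stood at 489 and 485 CPM in elastic and 430.4 and 395 CPM in viscous gel in Jak2 V617F cells (J1 and J2). In control cells it stood at 209 and 640.3 CPM in elastic and 191 and 559.5 CPM in viscous gel (W1 and W2). The control libraries bracketed the Jak2 V617F ones, since W1 was the lowest and W2 the highest in both gels. Itga6 stood at 7.37 and 5.24 CPM in elastic and 9.39 and 13.0 CPM in viscous gel in Jak2 V617F cells, and at 12.4 and 7.32 CPM in elastic and 17.5 and 8.46 CPM in viscous gel in control cells. The elastic library was the lower one within each of the 4 title numbers, while the genotypes overlapped in both gels.

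Itgav pairs with Itgb1, Itgb3 or Itgb5 in receptors for vitronectin and other ligands with an RGD motif, and Itgb3 is also the beta chain of the platelet fibrinogen receptor. Itgav stood at 172 and 167 CPM in elastic and 125 and 169 CPM in viscous gel in Jak2 V617F cells, and at 129 and 167 CPM in elastic and 98.8 and 179.8 CPM in viscous gel in control cells. Its groups overlapped in viscous gel, and in elastic gel both Jak2 V617F libraries were above both control libraries by a small step (167.3 CPM against 167.0 CPM). Itgb3 stood at 17.4 and 18.0 CPM in elastic and 13.4 and 17.9 CPM in viscous gel in Jak2 V617F cells, and at 50.9 and 17.8 CPM in elastic and 26.8 and 14.8 CPM in viscous gel in control cells (W1 and W2). Itgb5 stood at 34.2 and 29.5 CPM in elastic and 40.7 and 36.6 CPM in viscous gel in Jak2 V617F cells, and at 70.8 and 31.5 CPM in elastic and 56.4 and 36.9 CPM in viscous gel in control cells. For both Itgb3 and Itgb5 the W1 libraries were the 2 highest, and W2 lay within the Jak2 V617F range.

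The 2 control numbers differed widely. Both W1 libraries were outside the range of the other 6, on the same side, for 6 of the 10 integrins: above it for Itga4, Itgb3 and Itgb5, and below it for Itgal, Itgb2 and Itga5. Over all IDs tested the same held for 30.9%, with 16.1% above and 14.8% below. These libraries were picked because they stand apart over all IDs, so the counts are a description with no test. Between the 2 control libraries in elastic gel, levels differed by 1.11-fold for Itgb1 to 4.91-fold for Itgal, against a median of 1.27-fold over all IDs. Between the 2 Jak2 V617F libraries in elastic gel, they differed by 1.01-fold for Itga5 to 1.40-fold for Itga6, against a median of 1.11-fold over all IDs. In viscous gel the 2 Jak2 V617F libraries differed by up to 3.54-fold (Itgb7).

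The first comparison asked whether elastic gel changed the integrin transcripts relative to viscous gel, over both genotypes. The largest differences were in Itgb7 and Itga6, which were lower in elastic gel, and in Itgal, which was higher, but no integrin passed the test. Itgb7 was 2.48-fold lower in elastic gel (log2 fold change −1.31, SE 0.47, 95% interval −2.43 to −0.18; edgeR adjusted p = 0.739). Itga6, the laminin-binding alpha chain, was 1.53-fold lower (−0.61, SE 0.30, 95% interval −1.33 to 0.11; edgeR adjusted p = 0.854). Itgal was 1.60-fold higher (0.67, SE 0.52, 95% interval −0.57 to 1.92; edgeR adjusted p = 0.923), and Itgb3 was 1.37-fold higher (0.45, 95% interval −0.39 to 1.30).

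Of the 10 integrins, edgeR called 0 at an adjusted p under 0.05, beside 0% of all 14785 IDs; DESeq2 called 0 of 10 beside 0.906%, and limma-voom 0 of 10 beside 0%. At an unadjusted p under 0.05, edgeR gave 1 of 10 (Itgb7) beside 6.28% of all IDs. DESeq2 gave the same 1 beside 6.79%, and limma-voom gave 0 beside 6.26%. The log2 fold changes of the 10 had a median of 0.11, against −0.0043 for all IDs, and 6 of 10 were above 0, against 49% of all IDs. No integrin had all 4 elastic libraries on 1 side of all 4 viscous ones, which 3.73% of all IDs had. Itgb1 had the narrowest interval, from −0.24 to 0.37, so a matrix effect of 1 log2 unit lies outside it. For Itgb2 (0.24, 95% interval −0.28 to 0.75), Itgav (0.15, −0.37 to 0.66), Itga4 (−0.11, −0.81 to 0.60) and Itgb5 (−0.073, −0.72 to 0.57) it also lies outside the interval. For Itga5 (0.21, −0.84 to 1.26) it does not, nor for Itgb7, Itga6, Itgal and Itgb3. These limits hold for the average over both genotypes, in the fit with no block per title number. In that fit, a gap between the title numbers of a group counts as spread. Within the 4 title numbers, Itga5 was higher in elastic gel by 0.13 (W1) to 0.30 (J2) log2 units. Within a genotype, intervals reached 1 log2 unit for Itgb2 (to 1.07, control), Itga4 (to −1.39, control) and Itgb5 (to −1.19, Jak2 V617F). Those of Itgb1 and Itgav did not.

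**Figure D2:**
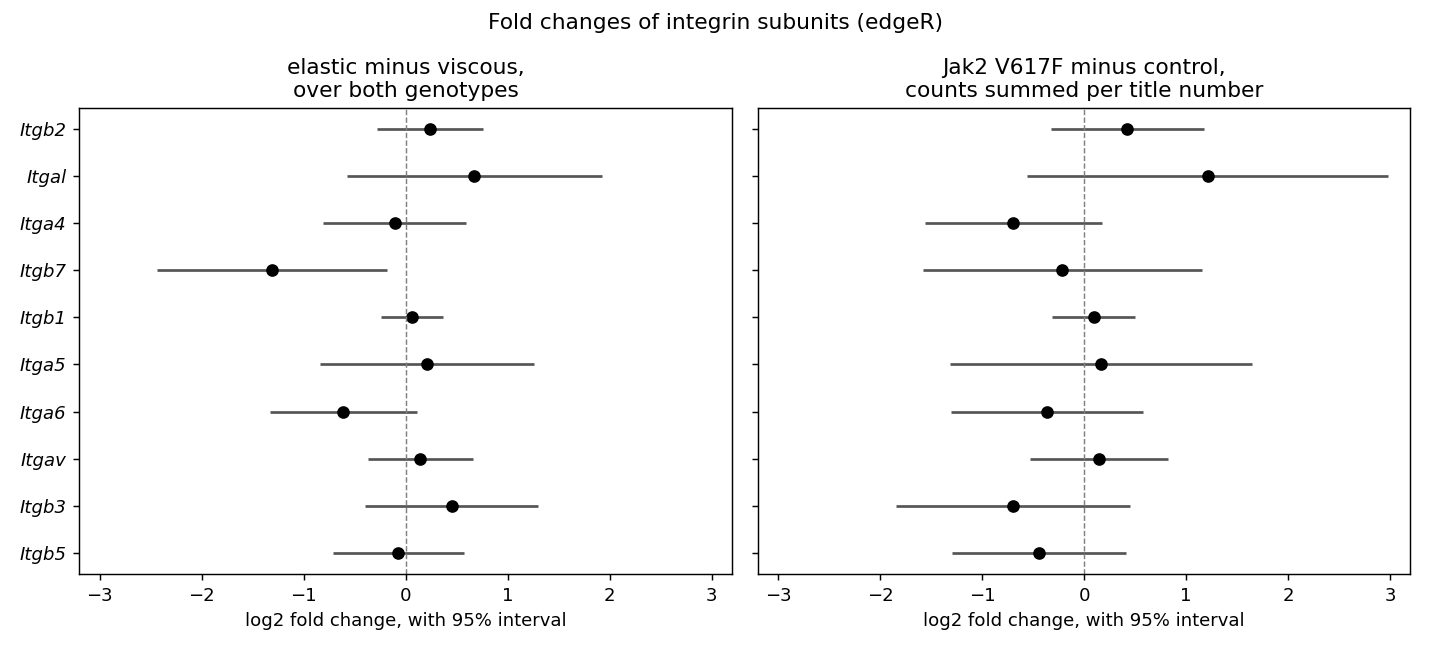
Log2 fold change (x axis) of each integrin with its 95% interval, for elastic minus viscous gel over both genotypes (left) and Jak2 V617F minus control on counts summed per title number (right). On the left only the interval of Itgb7 (−2.43 to −0.18) excludes 0, and on the right all 10 intervals include 0.

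Within the title numbers, Itgb7 was far lower in elastic gel in 2 of the 4. The elastic library stood at 0.208 times the viscous one in Jak2 V617F J2 and at 0.265 times in control W2. It stood at 0.79 times in Jak2 V617F J1 and at 1.08 times in control W1. Without the J2 viscous library the log2 fold change of Itgb7 was −0.72, and without the W2 viscous library it was −0.86. Without both W1 libraries it was −1.74 (edgeR adjusted p = 0.321), and without both W2 libraries −0.73 (adjusted p = 0.57).

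Itga6 was lower in elastic gel in all 4 numbers, at 0.407 and 0.786 times the viscous level in Jak2 V617F J2 and J1 and at 0.709 and 0.866 times in control W1 and W2. With 1 library left out, its log2 fold change ran from −0.82 (without the W2 viscous library) to −0.30 (without the W1 viscous library). It was −0.61 with all libraries. Itga5 was higher in all 4 by a narrow range, 1.14-fold and 1.23-fold in Jak2 V617F J1 and J2 and 1.10-fold and 1.14-fold in control W1 and W2. Itgal was higher in all 4, though by 1.76-fold and 1.00-fold in Jak2 V617F J2 and J1 and by 2.39-fold and 1.12-fold in control W2 and W1. Itgb3 was also higher in all 4, by 1.01-fold and 1.29-fold in Jak2 V617F J2 and J1 and by 1.90-fold and 1.20-fold in control W1 and W2. In all, 4 of 10 integrins had the same direction in all 4 numbers, beside 21.5% of all IDs. Of these, 3 were higher, beside 10.7%, and 1 was lower, beside 10.8%. The count of 3 includes differences near 0, of 0.0023 log2 units for Itgal in J1 and 0.010 for Itgb3 in J2. Without both W1 libraries DESeq2 called Itgal (log2 fold change 0.81, adjusted p = 0.0251) among 345 IDs (2.29%), while edgeR did not (0.80, adjusted p = 0.348) and called 2 IDs in all. Without the W2 elastic library alone the sign of Itgal turned (−0.11).

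**Figure D3:**
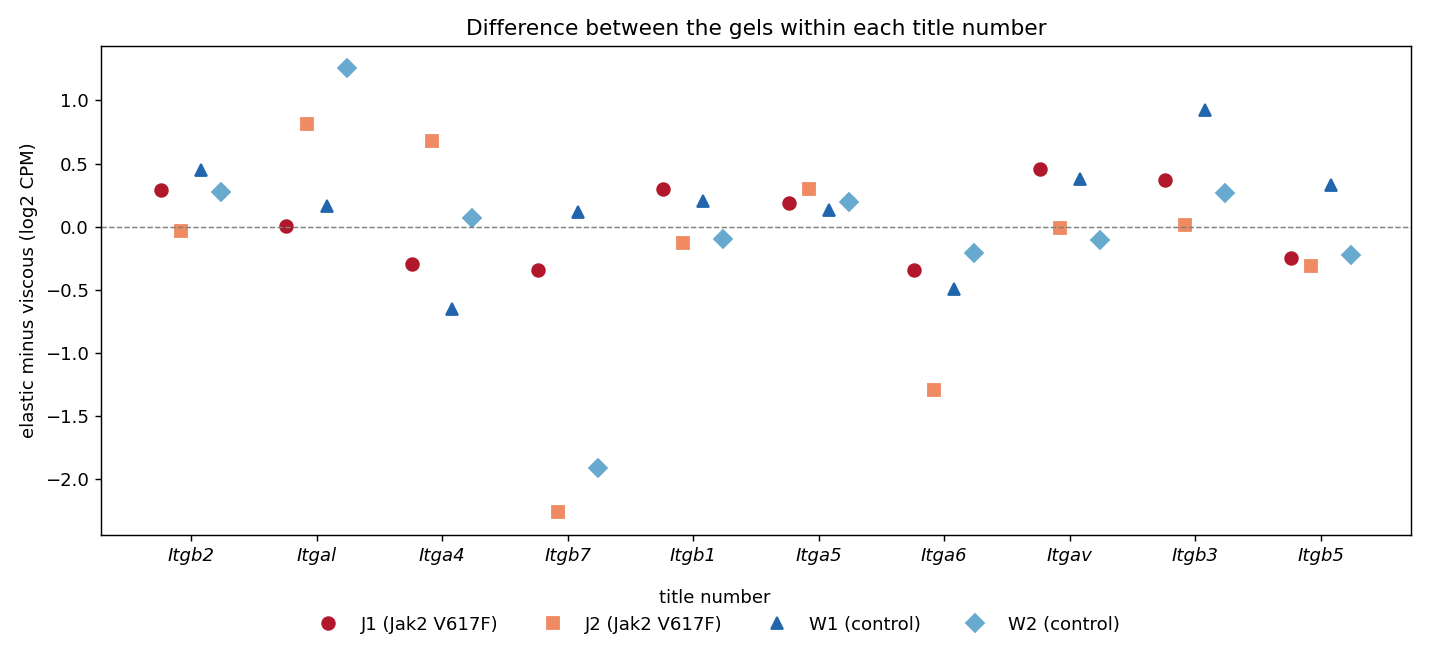
Elastic minus viscous log2 CPM (y axis) of each integrin (x axis) within each title number, Jak2 V617F numbers to the left of control numbers. Itgb7 lies at −2.27 and −1.91 in J2 and W2 and at −0.34 and 0.11 in J1 and W1, and Itga5 lies between 0.13 and 0.30 in all 4.

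In Jak2 V617F cells alone, elastic against viscous log2 fold changes ran from −1.57 (Itgb7) to 0.34 (Itgal), and edgeR called 0 of 10, beside 0% of all IDs, with 0 of 10 at an unadjusted p under 0.05 beside 3.08%. DESeq2 called 0 beside 0.237%, with 1 (Itgb7) at an unadjusted p under 0.05 beside 3.37%. limma-voom called 0 beside 0%, with 0 at an unadjusted p under 0.05 beside 3.09%. The libraries did not overlap for 4 of 10 (Itgb5, Itgb7 and Itga6 lower and Itga5 higher in elastic gel), beside 39.7% of all IDs, a share near that background. In control cells alone, the log2 fold changes ran from −1.04 (Itgb7) to 1.00 (Itgal), and edgeR called 0 of 10, beside 0%, with 0 at an unadjusted p under 0.05 beside 4.85%. DESeq2 called 0 beside 0.237%, with 0 at an unadjusted p under 0.05 beside 4.92%. limma-voom called 0 beside 0%, with 0 at an unadjusted p under 0.05 beside 4.8%. For 0 of 10 integrins did the control libraries of the gels not overlap, beside 26.9% of all IDs.

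The difference of the matrix effects, in Jak2 V617F minus in control cells, addresses whether the mutation alters the response to the gel. It ran from −0.66 (Itgal) to 0.57 (Itga4), and edgeR called 0 of 10, beside 0% of all IDs, with 0 at an unadjusted p under 0.05 beside 1.72%. DESeq2 called 0 beside 0.0135%, with 0 at an unadjusted p under 0.05 beside 1.67%. limma-voom called 0 beside 0%, with 0 at an unadjusted p under 0.05 beside 1.75%. The 95% intervals reached 0.61 log2 units to either side of the estimate for Itgb1, the narrowest, and 2.49 for Itgal, the widest. With bounds as far out as −3.14 and 2.16, the libraries set only wide limits on such a difference.

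Genotypes were then compared on counts summed per title number, 2 Jak2 V617F sums against 2 control sums. Itgal was higher and Itga4 and Itgb3 lower in Jak2 V617F cells by the largest factors of the set, and no integrin passed the test. Itgal stood at 237 and 177 CPM in the Jak2 V617F sums (J1 and J2), against 37.9 and 141 CPM in the control sums (W1 and W2), 2.31-fold higher (log2 fold change 1.21, SE 0.66, 95% interval −0.56 to 2.98; edgeR adjusted p = 0.795). Itga4 stood at 120.2 and 114 CPM in the Jak2 V617F sums, against 246 and 133 CPM in the control sums, 1.62-fold lower (−0.69, SE 0.32, 95% interval −1.56 to 0.18; edgeR adjusted p = 0.792). Itgb3 stood at 15.3 and 18.0 CPM in the Jak2 V617F sums, against 37.6 and 16.3 CPM in the control sums, 1.62-fold lower (−0.70, SE 0.43, 95% interval −1.84 to 0.45; edgeR adjusted p = 0.795).

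Itgb2 had a log2 fold change of 0.42 (95% interval −0.33 to 1.17), Itgb5 of −0.44 (−1.29 to 0.41) and Itga6 of −0.36 (−1.30 to 0.58). Itgb7 (−0.21, −1.58 to 1.15), Itga5 (0.17, −1.31 to 1.65), Itgav (0.15, −0.53 to 0.82) and Itgb1 (0.095, −0.31 to 0.50) lay nearer 0. These 7 had edgeR adjusted p-values between 0.8 and 0.95. Of the 10, edgeR called 0 beside 0% of 15239 IDs, with 0 at an unadjusted p under 0.05 beside 5.22%. DESeq2 called 0 beside 0.696%, with 2 (Itga4 and Itgal) at an unadjusted p under 0.05 beside 7%. limma-voom called 0 beside 0%, with 0 at an unadjusted p under 0.05 beside 5.04%. The median log2 fold change of the 10 was −0.059, against −0.0049 for all IDs, and 5 of 10 were above 0, against 49.2%. For 0 of 10 did the 4 Jak2 V617F libraries lie on 1 side of the 4 control libraries, which 6.89% of all IDs did.

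The genotype estimates depended on which control number stood for control cells. Against W1 alone, Itgal, Itga5 and Itgb2 were higher in Jak2 V617F cells (log2 fold changes 2.46, 1.19 and 0.79). Itgb3, Itga4, Itgb5 and Itga6 were lower (−1.17, −1.06, −0.81 and −0.75). Itgav (0.51), Itgb7 (0.21) and Itgb1 (0.12) were higher by smaller factors. W1 also stood apart over all IDs on the first principal component. Against W2 alone, Itgal had a log2 fold change of 0.55, Itgb2 of 0.13, Itga5 of −0.42 and Itga4 of −0.18. Itgb3 (0.026), Itgb5 (0.056), Itga6 (0.18) and Itgav (−0.14) changed sign against the fit on all sums, as Itga5 did. Itgb7 had a log2 fold change of −0.54 and Itgb1 of 0.083. In both fits the lone control sum is assumed to vary like the Jak2 V617F sums. Itgal, Itgb1, Itgb2 and Itga4 had the same sign in all 11 alternative fits. Only 4 of these fits left out a sum, and the rest used all libraries. Itgal ran from 0.55 to 2.46, Itgb2 from 0.13 to 0.79, Itgb1 from 0.043 to 0.15 and Itga4 from −1.06 to −0.18.

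Within viscous gel, Jak2 V617F against control log2 fold changes ran from −0.96 (Itga4) to 1.62 (Itgal). edgeR called 0 of 10 beside 0% of all IDs, with 0 at an unadjusted p under 0.05 beside 7.31%. DESeq2 called 0 beside 0.413%, with 2 (Itga4 and Itgal) at an unadjusted p under 0.05 beside 8.42%. limma-voom called 0 beside 0%, with 0 at an unadjusted p under 0.05 beside 7.61%. Within elastic gel they ran from −0.96 (Itgb3) to 0.96 (Itgal), and edgeR called 0 of 10 beside 0%, with 0 at an unadjusted p under 0.05 beside 4.42%. DESeq2 called 0 beside 0.298%, with 0 at an unadjusted p under 0.05 beside 5.94%. limma-voom called 0 beside 0%, with 0 at an unadjusted p under 0.05 beside 3.79%. Libraries of the genotypes did not overlap for 2 of 10 integrins in viscous gel (Itgb2 and Itgal higher in Jak2 V617F cells), beside 37.7% of all IDs, and for 3 of 10 in elastic gel (Itgav and Itgal higher, Itgb7 lower), beside 36.1%. Itgal was the 1 integrin of 10 separated in the same direction in both gels, beside 13.5% of all IDs. Fits without the W2 or the W1 libraries leave 1 control library in each gel. A difference of genotype cannot be told apart there from one of that library, and this was not tested. Without the W2 libraries edgeR called 3 of 10 in viscous gel (Itga5 and Itgal higher, Itga4 lower) and 4 of 10 in elastic gel (Itga5 and Itgal higher, Itgb3 and Itgb5 lower). The same fits called 771 IDs (4.98%) in viscous and 1206 IDs (7.79%) in elastic gel, so the integrins are part of a difference from W1 that spans many IDs. Without the W1 libraries edgeR called 0 of 10 in either gel and 0 IDs in all, and DESeq2 called Itgal in viscous gel among 170 IDs (1.13%).

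Since an alpha chain is shown at the surface only with a beta partner, the ratio of partner transcripts was followed within each library. These ratios are compared between libraries and not between pairs, and they are given with no test. The ratio of Itgav to Itgb3 was 9.88 and 9.29 in elastic and 9.34 and 9.44 in viscous gel in Jak2 V617F cells (J1 and J2). In control cells it was 2.53 and 9.36 in elastic and 3.69 and 12.1 in viscous gel (W1 and W2), so W1 stood apart from 6 libraries between 9.29 and 12.1. The ratio of Itga5 to Itgb1 was 0.776 and 0.825 in elastic and 0.84 and 0.615 in viscous gel in Jak2 V617F cells, against 0.35 and 1.18 in elastic and 0.367 and 0.966 in viscous gel in control cells. As for Itga5 itself, W1 was lowest and W2 highest.

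The ratio of Itga4 to Itgb7 separated single libraries instead of a title number. It was 4.48 and 6.46 in elastic and 4.35 and 0.836 in viscous gel in Jak2 V617F cells (J1 and J2), against 4.39 and 4.77 in elastic and 7.48 and 1.20 in viscous gel in control cells (W1 and W2). The viscous libraries of J2 and W2, which had the highest Itgb7, were the 2 lowest. The ratio of Itgal to Itgb2 was 0.178 and 0.211 in elastic and 0.217 and 0.117 in viscous gel in Jak2 V617F cells, against 0.0513 and 0.173 in elastic and 0.0626 and 0.0877 in viscous gel in control cells. Both Jak2 V617F libraries exceeded both control libraries within each gel, though in elastic gel by a small step (0.178 against 0.173). Both W1 libraries were the lowest of the 8 for this ratio too. The ratio of Itga6 to Itgb1 was lower in elastic gel in all 4 numbers, and that of Itgav to Itgb5 was higher in all 4. The other ratios were Itga4 to Itgb1, from 0.139 to 0.574, and Itgav to Itgb1, from 0.19 to 0.31, and neither moved in 1 direction in all 4 numbers.

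**Figure D4:**
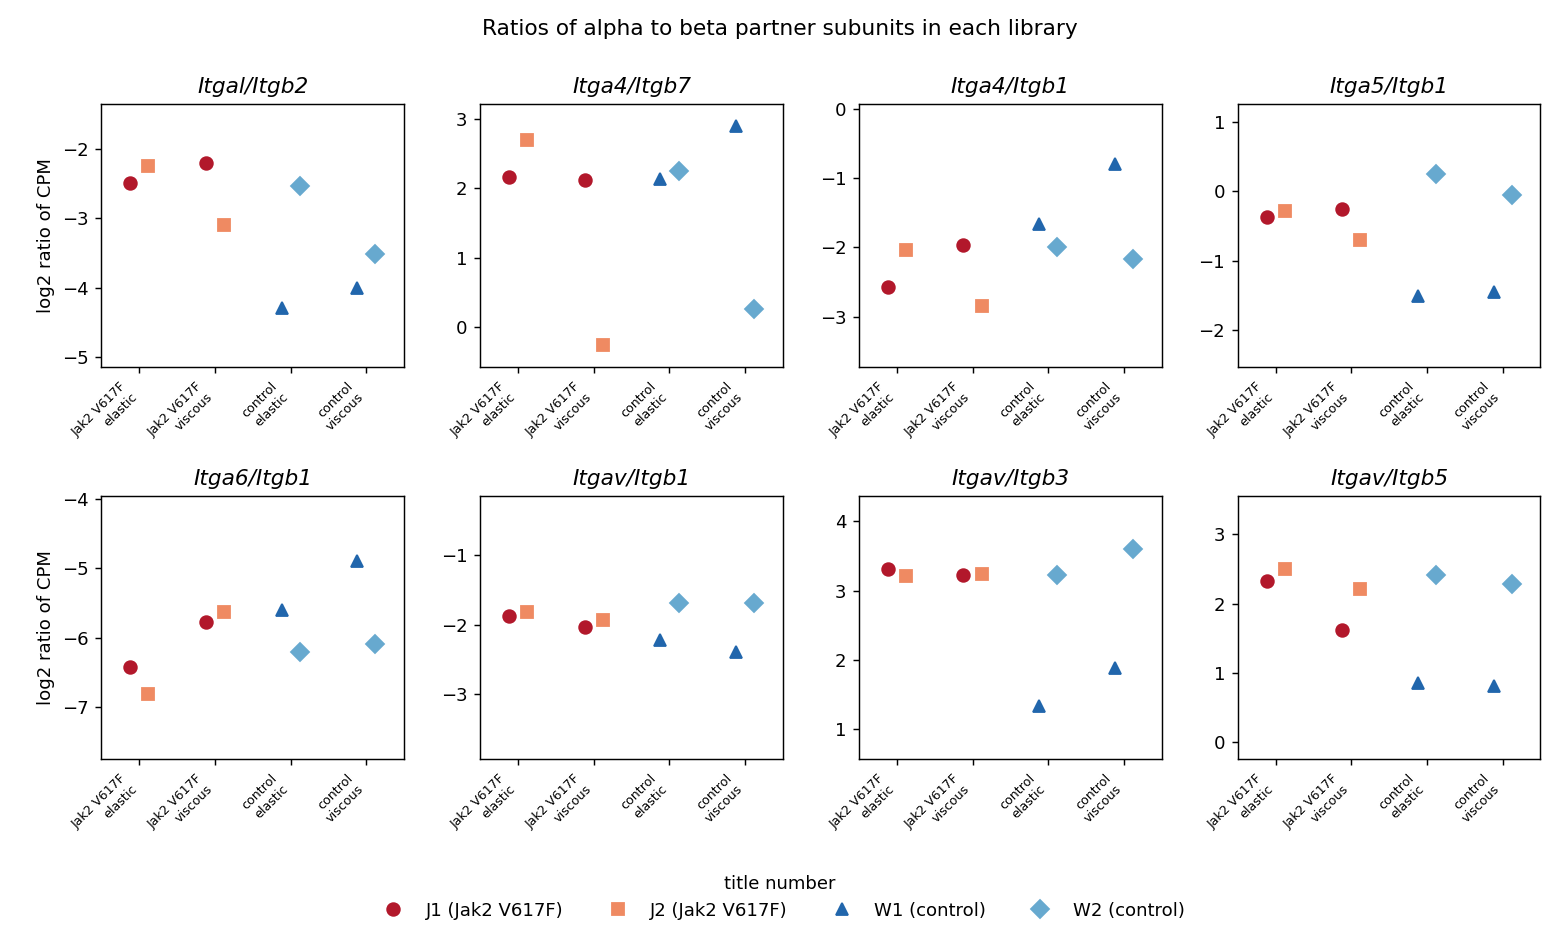
Log2 ratio of CPM (y axis) of 8 alpha and beta partner pairs in each library, by genotype and gel on the x axis; symbols mark the title number and each panel spans the same height. W1 lies below the other libraries for Itgal/Itgb2, Itgav/Itgb3, Itgav/Itgb5, Itgav/Itgb1 and Itga5/Itgb1, and the viscous libraries of J2 and W2 lie lowest for Itga4/Itgb7.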

How the data were processed

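RNA was measured in 8 bulk libraries. The authors deposited whole-number counts per Ensembl gene ID, without normalization; the submitters' processing notes name Salmon, DESeq2 and GRCm38, with no versions or order. Summing, rounding, filtering and strand settings are not given in the sources used here. Each ID summed to at least 10 counts. The 8 per-library files and the series table held equal values.

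IDs were filtered with filterByExpr, scaled by TMM and tested with edgeR 4.0.16 (R 4.3.3): quasi-likelihood, 4 group means over 8 libraries, or 2 sums against 2 per genotype, two-sided, Benjamini-Hochberg over all IDs tested, called at an adjusted p under 0.05. Log2 CPM used a prior count of 2. Replicates of a group differed by more than counting error (chi-square over degrees of freedom from 16.8 to 228). Alternatives were DESeq2 1.42.0, limma-voom (limma 3.58.1), other scalings and filters, libraries left out, and a block per title number; 2 DESeq2 fits without W1 or W2 were chosen after seeing the data.

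All 10 integrins are named with their levels; fold changes and p-values are given singly over both genotypes or both gels, and otherwise as ranges. Members and lists were chosen with earlier results of these data known. The fixed lists of adaptors, ligands and cell type markers were not analysed here: 0 of 49997 genes in the RefSeq table carried an Ensembl ID.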

Additional observations from a re-analysis of the deposited data

How the results depend on the processing

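The count of integrins called was 0 in all 7 comparisons and stayed 0 in 124 of 131 alternative counts. Among them were both other scalings, both other filters, DESeq2 and limma-voom on all libraries. The count of all IDs called was also 0 in all 7 comparisons and stayed 0 in 97 of 131. The stable count of integrins is therefore no result about integrins. With both W2 libraries left out, edgeR called 3 integrins for genotype in viscous and 4 in elastic gel, among 771 and 1206 IDs, and DESeq2 4 and 5 among 1461 and 1888 IDs, in each gel those of edgeR and Itgb2; with both W1 libraries left out, DESeq2 called 1 for matrix over both genotypes and 1 for genotype in viscous gel, Itgal in both, among 345 and 170 IDs. Leaving W2 out of the sums also moved the genotype count over both gels, and W1 was then the only control sum. Of 310 alternative log2 fold changes, 24 changed sign, all but 6 of them with 1 library or sum left out. Those 6 are matrix effects: Itgb5 was 0.022 (edgeR) and 0.031 (DESeq2) without both W2 libraries, and without both W1 libraries Itgb1 was −0.0092 and −0.0045 and Itga4 0.13 and 0.13. With 1 library left out, matrix effects that changed sign ran from −0.0092 to 0.15 (Itgb1), −0.019 to 0.74 (Itgb3), −0.42 to 0.16 (Itgb5), −0.038 to 0.40 (Itgav), −0.34 to 0.25 (Itga4), −0.30 to 0.70 (Itga5) and −0.11 to 1.04 (Itgal). With 1 sum left out, genotype effects that changed sign ran from −1.17 to 0.026 (Itgb3), −0.81 to 0.056 (Itgb5), −0.99 to 0.29 (Itgb7), −0.14 to 0.51 (Itgav), −0.42 to 1.19 (Itga5) and −0.75 to 0.18 (Itga6). A lone library or sum is assumed to vary like the others, and the cause of these changes was not tested. Another scaling moved the median of all IDs by at most 0.022 log2 units, and partner ratios do not depend on scaling.

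Fitting the title number as a replicate block gave 0 of 10 integrins called in all 4 matrix comparisons, as a fixed (edgeR) or a random term (limma-voom, correlation 0.38). Of all 14785 IDs, the fixed block called 5 (0.0338%) over both genotypes and 0 in the other matrix comparisons. The random block called at most 2 (0.0135%) in any of them. Over both genotypes the fixed block gave 3 integrins an unadjusted p under 0.05: Itga6, Itgb3 and Itgal, with edgeR adjusted p-values of 0.314, 0.364 and 0.415. Of all IDs, 11.9% had one. Itgb7 had an unadjusted edgeR p of 0.0531 in the fixed block. The random block gave Itgb7 and Itga6 an unadjusted limma-voom p under 0.05 (0.0393 and 0.0422, adjusted p = 0.417 and 0.423), beside 11.3% of all IDs. Deviations from the group mean correlated between same-numbered libraries at −0.089 in Jak2 V617F cells and 0.53 in control cells. A correlation above 0.1 in every pair was required to treat the numbers as a pairing in the matrix fits, and Jak2 V617F cells did not reach it. The numbers were still used as units for the genotype sums and to describe the gels side by side.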
